A study of Rattus norvegicus with 16 samples.

Results

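Livers of rat pups exposed through their mothers to 2 chemical mixtures were set against each other: the lower dose of a broad mixture, labelled 0.5M, that holds methylmercury, organochlorine pesticides and polychlorinated biphenyls (PCBs), and a mixture of agonists of the aryl hydrocarbon receptor (AhR). The comparison takes the 4 arrays titled as 0.5M liver and the 4 titled as AhR liver, 8 of the 16 arrays at hand, and was chosen by these titles and not by any measured value. All pups were male Sprague-Dawley rats of 21 days that stayed with their birth mothers. The dams of the 0.5M pups received the mixture in corn oil at 0.5 mg/kg/day, and those of the AhR pups received non-ortho PCBs, dibenzodioxins and dibenzofurans at 1.8 ng/kg/day in toxic equivalents of TCDD, the dioxin that serves as reference. Dosing ran through gestation and lactation, so the pups were exposed in the womb and through milk. The doses are in different units, and no dioxin equivalent of 0.5M alone is given. A group given both sets of compounds, not analysed here, is labelled with 6.3 ng/kg/day in the same equivalents. Corn oil controls (C, 4 arrays) are cited as a background level and entered only 1 alternative fit, that of all 16 arrays, where they add to the estimate of the spread.

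Each array held liver RNA of 2 pups of a group, pooled at random, so that 8 pups stand behind each group of 4 arrays. The arrays are described as biological replicates, but the litters of the pups are not stated. Since dams and not pups were dosed, any litter shared between arrays makes the p-values too small. Cy5 marked the liver RNA on every array and Cy3 a reference RNA from rat cell lines, with no dye swap. Every level below is the log2 ratio of Cy5 to Cy3, and every difference is 0.5M minus AhR on that scale. Replicates 1 and 2 of both groups lay on slide 1 and replicates 3 and 4 on slide 2.

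The AhR is a ligand-activated transcription factor that dioxins and planar PCBs bind. With its partner ARNT it switches on genes of the CYP1 family, and Cyp1a1 is its best known target in liver. Other PCBs and several organochlorine pesticides act instead through CAR, the receptor by which phenobarbital induces the CYP2B enzymes, or through PXR, which controls CYP3A enzymes. Liver detoxifies foreign compounds through these P450 enzymes and through the conjugating enzymes and pumps that follow them. Metallothioneins are small proteins that bind zinc, copper, cadmium and mercury, and their genes are switched on through metal response elements in the promoter.

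The comparison asks how the liver response to the lower dose of the broad mixture differs from that to AhR agonists alone. Of 12140 transcripts tested, 7945 of them with a gene symbol, 1 passed the test of limma at an adjusted p of 0.05 (0.00824% of all), and it was higher in 0.5M: Cyp2b2, a P450 that phenobarbital induces through CAR. None passed as lower in 0.5M. At an unadjusted p under 0.05 there were 1150 transcripts, 379 higher and 771 lower in 0.5M, where chance gives 607. The 4 arrays of 0.5M lay above all 4 of AhR for 236 transcripts (1.94%) and below all of them for 384 (3.16%). The median difference over all transcripts was 0.00 and the median standard error was 0.10. Behind Cyp2b2, 11 transcripts shared the next adjusted p of 0.0653, 4 of them with a symbol: Cyp1a1 and Cyp2c6v1 on the side of 0.5M, Smad7 and Il1rn on the side of AhR. The count of 1 depended on single arrays. It was 6 without array 4 of 0.5M, 5 without array 1 of AhR, and 2 without array 2 or array 3 of AhR. In the case of array 2 the added gene was Spink1, a trypsin inhibitor of the pancreas (-1.07, adjusted p = 0.0479 by limma). Array 2 had the lowest Spink1 of the AhR group, at -1.29 against -0.49 to 0.06 on the others. Spink1 was above background on only 1 array of 0.5M and on 3 of AhR. Its difference was -0.11 on slide 1 and -1.26 on slide 2. Cyp2b2 passed whichever array was left out.

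**Figure D1:**
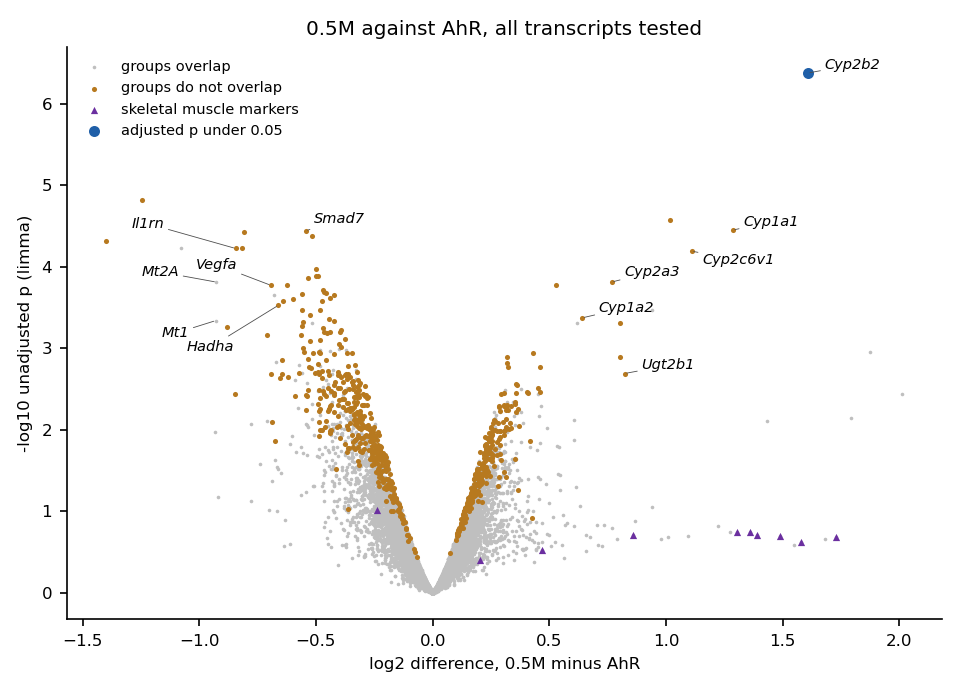
Each point is 1 of 12140 transcripts, with the log2 difference (0.5M minus AhR) on the x axis and -log10 of the unadjusted p of limma on the y axis. Cyp2b2, at a difference of 1.61, stands apart at the top right, while markers of skeletal muscle lie far right at low values on the y axis and were high on 1 array of 0.5M.

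The arrays were first checked for what tissue they held. Of 16 hepatocyte markers, 15 stood above background on all 8 arrays and Hnf4a, a transcription factor of hepatocytes, on 6. Between 8828 and 15066 of 30367 probes per array were above background in the liver channel, with the lowest counts in array 1 of AhR (8828) and array 2 of 0.5M (9206). Array 4 of 0.5M also held transcripts of skeletal muscle, and 11 of 18 markers of stellate cells and fibroblasts were highest there. Of 30 muscle markers 29 were highest there, all 30 stood above background, and their summed normalised Cy5 signal was 105000 against 3340 to 4650 on the other 7 arrays. Tnnc2, a troponin of fast muscle, was at 3.80 on that array and between -3.22 and -1.87 on the other 7. Array 2 of AhR held more of the exocrine pancreas, with 19 of 26 markers highest there and a summed signal of 2920 against 1900 to 2160. Of the 26, 15 stood above background on that array and 1 to 7 on each of the others. These counts and sums for other tissues include dim probes. Of the 6 pancreas markers that passed the filter on dim probes, 4 were highest on array 2 of AhR. Markers of hepatocytes were highest on array 1 of AhR for 10 of 16 genes. In pieces of whole liver, fewer cells of a type and less RNA per cell cannot be told apart.

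**Figure D2:**
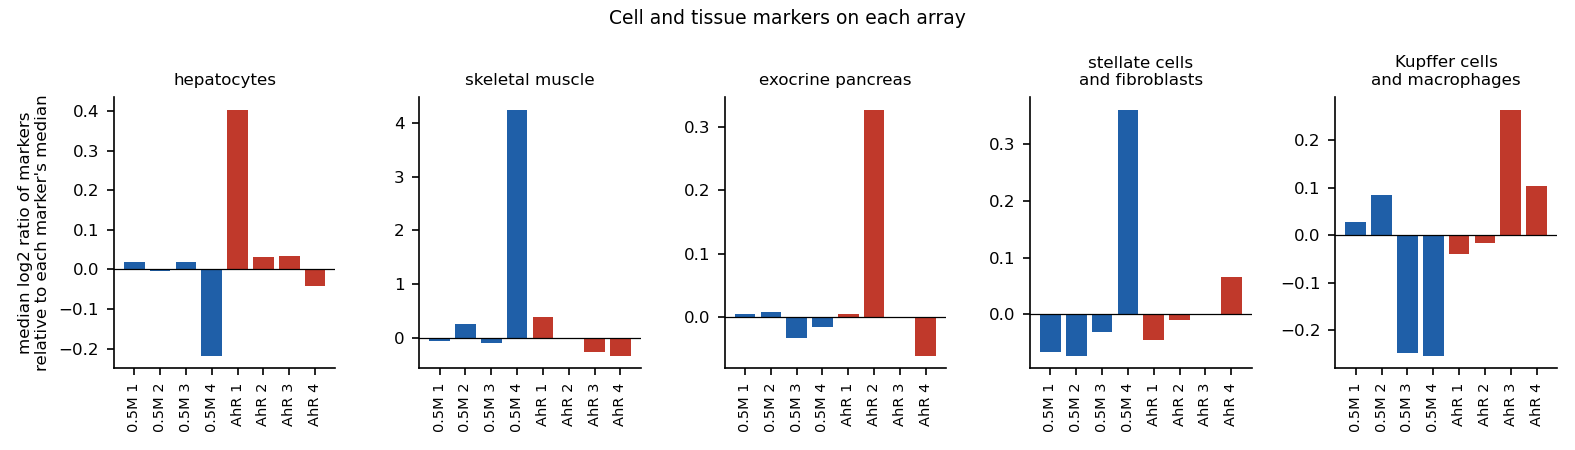
Bars give, for each of the 8 arrays, the median log2 ratio of the markers of a cell type or tissue after each marker's own median over the 8 arrays was subtracted (0.5M blue, AhR red, each panel with its own y axis). Muscle markers stood 4.24 above their median on array 4 of 0.5M, pancreas markers 0.33 on array 2 of AhR, and Kupffer cell markers -0.25 on arrays 3 and 4 of 0.5M.

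Among the targets of CAR and PXR, Cyp2b2 passed the test. Cyp2b2 (NM_001198676) stood at 1.62, 1.35, 1.15 and 1.07 on the 4 arrays of 0.5M and at -0.58, -0.08, -0.23 and -0.35 on those of AhR. The groups lay more than 1 log2 unit apart at their closest, and the AhR arrays overlapped with the controls (-0.70 to -0.35). Cyp2b2 rose 3.05-fold in 0.5M over AhR (log2 difference 1.61 ± 0.13, standard error, 95% interval 1.31 to 1.91, 4 arrays on each side), with an adjusted p of 0.00513 by limma and the Benjamini-Hochberg method. The difference was 1.81 on slide 1 and 1.41 on slide 2. A second probe for the same transcript gave 1.20. Cyp2b1, a near-identical copy, is matched by no probe, so signal from it could be counted with Cyp2b2.

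Cyp2c6v1 (NM_001013904), a constitutive P450 of rat liver that phenobarbital also induces, had the next largest difference among these targets. It stood at 0.25, 0.03, 0.20 and -0.42 in 0.5M and at -1.34, -0.82, -0.94 and -1.27 in AhR. All 0.5M arrays lay above all AhR arrays, with array 4 of 0.5M, the one with muscle, the lowest of its group. The difference was 1.11 ± 0.17 (2.16-fold, adjusted p = 0.0653, 95% interval 0.74 to 1.48), and 1.22 and 1.00 on slides 1 and 2. Without array 4 of 0.5M it was 1.26 and passed (adjusted p = 0.0263 by limma). Without any other single array it did not pass (adjusted p up to 0.253). Control arrays lay between -1.23 and -0.59 and overlapped with AhR.

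Ugt2b1, which attaches glucuronic acid to steroids and drugs, followed with 1.02, 0.99, 1.12 and 0.52 in 0.5M against -0.32, 0.48, -0.15 and 0.36 in AhR. The groups did not overlap, although array 4 of 0.5M stood only just above array 2 of AhR, and the difference of 0.82 ± 0.20 did not pass (adjusted p = 0.235). Abcc2, the pump that exports conjugates into bile, had a difference of 0.35 with all 4 arrays of 0.5M above those of AhR (adjusted p = 0.286). Cyp3a23-3a1, the CYP3A enzyme that PXR ligands induce, stood at 0.38 with 3 of 4 arrays above all of AhR (adjusted p = 0.298). Abcc3, a pump on the blood side of the hepatocyte, stood at 0.14 (adjusted p = 0.732, 95% interval -0.12 to 0.39) and Aldh1a1, which oxidises retinal, at 0.50 (adjusted p = 0.576). For Aldh1a1 the slides differed, with 1.02 on slide 1 and -0.03 on slide 2.

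Of 30 listed targets of CAR and PXR, 23 passed the filter on dim probes. Of these, 1 passed the test (Cyp2b2), 20 were higher in 0.5M and 3 lower, and for 4 (17.4%) the groups did not overlap, all with 0.5M above: Cyp2b2, Cyp2c6v1, Ugt2b1 and Abcc2. Over all transcripts that share was 1.94%. The median difference of the 23 was 0.19 beside 0.00 over all transcripts, and 0.21 and 0.20 on the slides taken alone. Below the 4 came members whose arrays overlapped, such as the heme synthesis enzyme Alas1 (0.44), the carboxylesterase Ces2c (0.41) and the epoxide hydrolase Ephx1 (0.40), each with an adjusted p above 0.6. Leaving out 1 array moved these to as little as 0.24 for Alas1 (without array 4 of 0.5M), 0.16 for Ces2c (without array 1 of 0.5M) and 0.14 for Ephx1 (without array 2 of 0.5M). Cyp2a3, a P450 outside this list, stood at 0.88, 0.59, 0.60 and 1.00 in 0.5M and at -0.11, 0.26, -0.03 and -0.12 in AhR. Its groups did not overlap (difference 0.77 ± 0.13, adjusted p = 0.0976), and 3 of the 4 AhR arrays had it above background.

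Both CYP1A enzymes, the classic targets of the AhR, stood higher in 0.5M than in the pups given AhR agonists on every array, without passing the test. Cyp1a1 (NM_012540), which oxidises planar aromatic compounds, stood at 2.69, 1.96, 1.88 and 1.85 in 0.5M and at 0.59, 1.11, 0.61 and 0.92 in AhR. The groups did not overlap, array 1 of 0.5M was the highest, and both groups lay above the controls (-2.01 to -1.09). The difference of 1.29 ± 0.18 (2.44-fold) missed the threshold (adjusted p = 0.0653, 95% interval 0.89 to 1.69), with 1.47 on slide 1 and 1.10 on slide 2. It passed when all 16 arrays entered the fit (adjusted p = 0.0200) or arrays were weighted (0.0342), and under none of the other 21 of 23 alternatives, with 0.112 to 0.192 when 1 array was left out. Cyp1a2, the second CYP1A enzyme, stood at 1.60, 1.36, 1.23 and 1.13 in 0.5M and at 0.49, 0.67, 0.73 and 0.86 in AhR. Its groups did not overlap either, and the difference was 0.64 ± 0.12 (adjusted p = 0.136), with 0.90 on slide 1 and 0.38 on slide 2. Control arrays of Cyp1a2 spread from 0.03 to 0.89, over the whole range of AhR.

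The other measured AhR targets differed less. Ugt1a6, which conjugates phenols, had a difference of 0.27 (adjusted p = 0.489) and the quinone reductase Nqo1 one of 0.33 (adjusted p = 0.634, 95% interval -0.11 to 0.77), each with 3 of 4 arrays of 0.5M above all of AhR. Nfe2l2, the gene of the antioxidant regulator NRF2, stood at 0.33 with 2 of 4 arrays above (adjusted p = 0.476). Of 14 listed targets 9 passed the filter on dim probes, 7 of them higher and 2 lower in 0.5M, with a median of 0.27 that was 0.47 on slide 1 and 0.15 on slide 2. The groups did not overlap for 2 of the 9 (22.2%), Cyp1a1 and Cyp1a2, where 1.94% of all transcripts lay so. Cyp1b1, another CYP1 enzyme, was above background on 1 of 8 arrays and Ahrr, the repressor that the receptor induces, on none, so neither was tested.

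**Figure D3:**
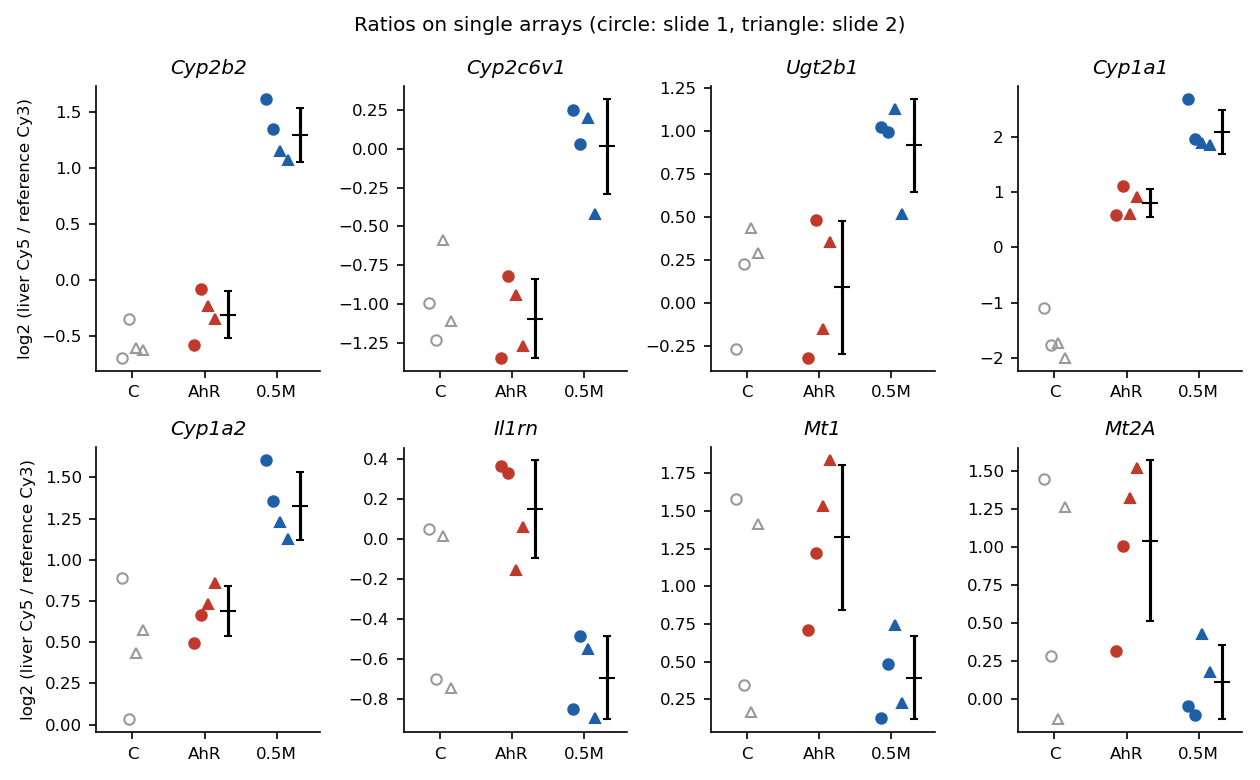
Points are single arrays (circles slide 1, triangles slide 2), with the log2 ratio of liver to reference on the y axis of each panel, for 8 genes. Red points are AhR and blue points 0.5M, the black bar beside them gives the mean and SD of the 4 arrays, and open grey points are corn oil controls, which did not enter the fit of 8 arrays. Cyp2b2, Cyp2c6v1, Ugt2b1, Cyp1a1 and Cyp1a2 have all 0.5M arrays above all AhR arrays, Il1rn all below, while the metallothioneins Mt1 and Mt2A overlap between array 1 of AhR and array 3 of 0.5M.

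The receptors themselves gave no call. Of 19 listed nuclear receptors, AhR partners and related regulators, 16 passed the filter and none passed the test. Nr1i3, the gene of CAR, had a difference of -0.54 ± 0.19 (adjusted p = 0.411) with overlapping groups, opposite in sign to Cyp2b2. Ahr stood at -0.20 (adjusted p = 0.607), with 0.01 on slide 1 and -0.41 on slide 2, and Nr1i2, the gene of PXR, at -0.16 (adjusted p = 0.618). All 0.5M arrays lay below all AhR arrays for 2 members (12.5%, against 3.16% of all transcripts), among them Ppara, the receptor for fatty acids (-0.22). Arnt2, which is on no list and is a relative of the AhR partner best known from brain, stood at -0.42 ± 0.07 with no overlap (adjusted p = 0.10), but its other probe, above background on none of the arrays, gave -0.15.

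On the side of AhR the 2 metallothioneins, both measured, had the largest differences of their list. Mt1 (NM_138826) stood at 0.12, 0.49, 0.74 and 0.22 in 0.5M and at 0.71, 1.22, 1.53 and 1.84 in AhR. Mt2A (NM_001137564) stood at -0.05, -0.10, 0.43 and 0.18 in 0.5M and at 0.31, 1.00, 1.32 and 1.52 in AhR. In both genes array 1 of AhR, the lowest of its group, lay below array 3 of 0.5M and above the other 3. The difference was -0.93 ± 0.18 for Mt1 (adjusted p = 0.136) and -0.93 ± 0.15 for Mt2A (adjusted p = 0.0976), and a second probe of Mt2A gave -0.95. On slides 1 and 2 it was -0.66 and -1.20 for Mt1 and -0.74 and -1.12 for Mt2A. Without array 1 of AhR, Mt2A was at -1.10 and passed (adjusted p = 0.00976 by limma), but it did not without any other single array (up to 0.321). Mt1 did not pass without any 1 array (adjusted p from 0.135 to 0.393). The 4 controls overlapped with both groups, at 0.17 to 1.58 for Mt1 and -0.14 to 1.44 for Mt2A. Slc30a1, a zinc exporter whose gene also responds to metals, stood at -0.34 (adjusted p = 0.310, 3 of 4 arrays of 0.5M below all of AhR).

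The promoters of both metallothioneins are shown because their differences were alike in size and in which arrays stood high, and because the metal response motif can be read in them. Each is the 250 bases before the annotated start in RefSeq (build GRCr8, minus strand, written 5′ to 3′ along the gene), at chr19:10832976-10833225 for Mt1 and chr19:10838709-10838958 for Mt2A. Capitals mark matches to TGCACNC or TGCGCNC on either strand, the core of the metal response element.
Mt1: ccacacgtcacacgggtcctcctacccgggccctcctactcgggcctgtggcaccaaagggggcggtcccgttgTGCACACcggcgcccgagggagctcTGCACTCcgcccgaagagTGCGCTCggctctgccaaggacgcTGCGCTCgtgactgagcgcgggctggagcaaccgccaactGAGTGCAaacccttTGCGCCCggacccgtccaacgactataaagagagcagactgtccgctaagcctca
Mt2A: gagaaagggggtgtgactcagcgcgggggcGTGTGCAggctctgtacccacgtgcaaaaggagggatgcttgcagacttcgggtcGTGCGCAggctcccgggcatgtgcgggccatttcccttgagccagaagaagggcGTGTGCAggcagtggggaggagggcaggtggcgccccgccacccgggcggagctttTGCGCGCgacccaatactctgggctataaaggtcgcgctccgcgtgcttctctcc
Mt1 holds 6 matches, the first starting 176 bases and the last 55 bases before the start, and Mt2A holds 4, from 220 to 55 bases before it. In Mt1, 5 of the 6 run along the gene, and in Mt2A 1 of the 4. At least 1 match occurs in 20.6% of 33469 promoters of the same length, at least 4 in 0.266% and at least 6 in 0.0269%. A match describes the letters and does not show that a factor binds there.

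The heat shock genes listed with the metallothioneins were mixed. Of 11 measured members of that list 7 were higher and 4 lower in 0.5M, and the median was 0.12. In 1 of the 11 (9.09%, against 1.94% of all transcripts) all 0.5M arrays lay above all AhR arrays. This was Hsp90aa1, a chaperone that also keeps the AhR ready to bind, at 0.36 (adjusted p = 0.261 by limma). Without array 4 of 0.5M the median was -0.09, without array 1 of AhR 0.04, and -0.05 without both arrays that held other tissue. Bag3, a partner of the chaperone Hsp70, stood at 0.54 (adjusted p = 0.483), with 2 of 4 arrays above those of AhR and array 4 of 0.5M, the one with muscle, the highest.

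Il1rn, the secreted antagonist of the interleukin-1 receptor, was among the transcripts nearest to the threshold on the side of AhR. It stood at -0.85, -0.49, -0.55 and -0.90 in 0.5M and at 0.36, 0.33, -0.16 and 0.06 in AhR, with no overlap. The difference was -0.84 ± 0.12 (1.80-fold, adjusted p = 0.0653, 95% interval -1.12 to -0.56), and -1.01 and -0.68 on slides 1 and 2. The controls lay in both ranges, at 0.05, -0.70, 0.01 and -0.75. Lbp, the plasma protein that binds bacterial lipopolysaccharide, stood at -0.67 ± 0.15 (adjusted p = 0.221), with -0.38 on slide 1 and -0.96 on slide 2. Without array 1 of AhR it was at -0.84 with an adjusted p of 0.0454 by limma. Without any other single array it did not pass (adjusted p up to 0.539). No member of the acute phase list separated the groups. Of its 27 measured genes 12 were higher and 15 lower, with a median of -0.07 that ran from -0.12 to -0.04 when 1 array was left out (without array 2 of AhR and without array 1 of 0.5M), and Crp, C-reactive protein, had the largest difference the other way (0.38, adjusted p = 0.372).

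Markers of Kupffer cells, the macrophages of the liver, were lower in 0.5M for 15 of 18 genes, with a median of -0.20, and none passed the test. Fcer1g, a signalling chain of Fc receptors, stood at 0.07, 0.25, -0.43 and -0.24 in 0.5M and at 0.50, 0.38, 0.42 and 0.41 in AhR (difference -0.51 ± 0.11, adjusted p = 0.192). Clec4f, a lectin restricted to Kupffer cells, stood at -0.08, -0.03, -0.43 and -0.69 in 0.5M and at 0.12, 0.08, 0.20 and 0.15 in AhR (-0.44 ± 0.13, adjusted p = 0.296). These were the 2 members without overlap (11.1%, against 3.16% of all transcripts), and in both the lowest arrays were 3 and 4 of 0.5M. The list went with the slide: its median was 0.09 on slide 1 and -0.51 on slide 2, and it was -0.11 without array 4 of 0.5M. Markers of blood cells lay on the same side, with 11 of 13 lower in 0.5M, a median of -0.11, and 0.13 and -0.29 on slides 1 and 2. Array 3 of AhR was the highest for 8 of the 18 Kupffer markers and for 14 of 22 blood markers when dim probes were counted too. Without that array the median of the blood markers was -0.04, and without array 4 of 0.5M it was -0.01. The summed normalised Cy5 signal of the Kupffer markers ran from 20400 to 29100 on the 0.5M arrays and from 25000 to 30000 on the AhR arrays. Whether macrophage or blood content has a part in the differences of other genes was not tested.

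The genes ranked highest on the side of AhR were of mixed function, and none passed the test. Smad7 (NM_030858), which dampens signalling of transforming growth factor beta, stood at -0.37, -0.26, -0.36 and -0.35 in 0.5M and at 0.28, 0.17, 0.16 and 0.23 in AhR. Its spread within groups was the smallest of the 4 named genes at this adjusted p (SD 0.05 and 0.06). The difference was -0.54 ± 0.08 (1.46-fold, adjusted p = 0.0653), with -0.54 on slide 1 and -0.55 on slide 2. Of the controls, 3 lay between the groups and 1, at -0.61, lay below both. Ccnd1, the cyclin that drives entry into the cell cycle, stood at -0.47 ± 0.08 (adjusted p = 0.10) and Pfn1, an actin-binding protein, at -0.64 ± 0.12 (adjusted p = 0.104), both with all 0.5M arrays below all AhR arrays. Vegfa, a growth factor of blood vessels, stood at -0.69 ± 0.12 (adjusted p = 0.0976) by its brightest probe. Another probe of the same RefSeq transcript gave -0.53. By 2 probes of a second RefSeq transcript it stood at -0.12 and -0.05, the latter above background on 5 arrays. The probes of Vegfa thus differed by transcript. Lrp6, a Wnt co-receptor, stood at -0.47 by one probe and at 0.08 by the other. The RNA-binding protein gene Stau1 stood at -0.50 ± 0.08 (adjusted p = 0.0976) with no overlap.

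Other genes of the cell cycle stood mostly on the other side. Of 28 measured members 24 were higher in 0.5M, with a median of 0.11 (0.23 on slide 1, 0.05 on slide 2), but in none did the 0.5M arrays lie above all AhR arrays and none passed the test. Array 4 of AhR stood apart, highest for 19 of the 28 at a median of 0.56 above each gene's own median, where the other AhR arrays lay between -0.27 and -0.13. The median difference was 0.27 without that array, -0.01 without array 3 of AhR and 0.05 without array 2 of 0.5M. Rrm2, a subunit of the enzyme that makes DNA precursors, had the highest value at 0.32 (adjusted p = 0.687). Cdkn1a, an inhibitor of cyclin-dependent kinases that was listed with the genes responsive to glucocorticoids, stood at -0.48 ± 0.10 (adjusted p = 0.192), with 3 of 4 arrays of 0.5M below all of AhR. Igf2, a growth factor of fetal and young liver, stood at -0.74 (adjusted p = 0.451) and the imprinted RNA H19 beside it at -0.92 (adjusted p = 0.561), both with a wide spread: H19 ran from 0.70 to 2.35 in 0.5M and from 1.18 to 3.22 in AhR.

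Genes of fatty acid oxidation, many of them controlled by the receptor PPARα, were lower in 0.5M for 27 of 31 measured members. None passed the test. The median was -0.12 beside 0.00 over all transcripts (-0.12 on slide 1, -0.17 on slide 2), and the groups did not overlap for 5 (16.1%, against 3.16% of all transcripts). Hadha, a subunit of the mitochondrial enzyme that shortens long fatty acids, stood at -0.07, -0.18, 0.29 and -0.28 in 0.5M and at 0.53, 0.46, 0.78 and 0.63 in AhR. The difference was -0.66 ± 0.12 (adjusted p = 0.113), but a second probe of Hadha gave -0.14. Cpt1a, which admits fatty acids into mitochondria, stood at -1.16, -0.89, -0.69 and -1.24 in 0.5M and at -0.04, -0.62, -0.08 and -0.48 in AhR. Its difference was -0.69 ± 0.17 (adjusted p = 0.235), nearly equal on both slides (-0.70 and -0.68). The others were the fatty acid hydroxylase Cyp4a1 (-0.59), the enoyl-CoA isomerase Eci1 (-0.38) and Ppara itself (-0.22). Cyp4a3, another fatty acid hydroxylase, stood at -0.42 with overlapping groups (adjusted p = 0.522).

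Apolipoproteins and the proteins that handle lipoproteins lay on the same side. Of 19 measured, 17 were lower in 0.5M, with a median of -0.20 (-0.16 and -0.26 on slides 1 and 2), and none passed the test. For 3 of them (15.8%, against 3.16% of all transcripts) the groups did not overlap. These were Apoc2, the cofactor of lipoprotein lipase (-0.39 ± 0.10, adjusted p = 0.241), its neighbour Apoc4 (-0.41 ± 0.12, adjusted p = 0.310) and Lcat, which esterifies cholesterol in plasma (-0.25 ± 0.08, adjusted p = 0.359). Hepatocyte markers lay on the same side as both lipid lists. Of 16 such markers 12 were lower in 0.5M, with a median of -0.16, and they were highest on array 1 of AhR and lowest on array 4 of 0.5M. Without array 1 of AhR the medians were -0.09 for hepatocyte markers, -0.13 for fatty acid oxidation and -0.20 for apolipoproteins, and without array 4 of 0.5M they were -0.09, -0.13 and -0.19. Without both arrays that held other tissue the median of fatty acid oxidation was -0.07. Whether hepatocyte content has a part in these differences was not tested.

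**Figure D4:**
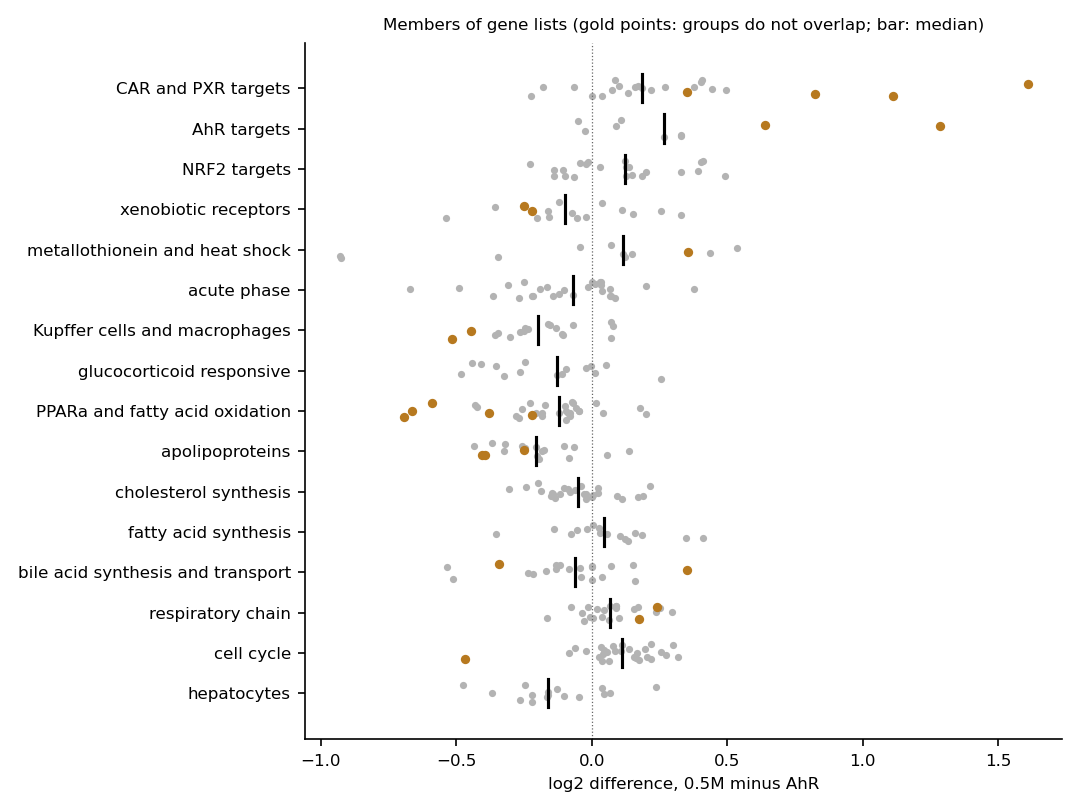
Each point is 1 measured gene of a list, placed by its log2 difference (0.5M minus AhR) on the x axis, with gold points where the groups do not overlap and a bar at the median of the list. Of the 16 lists drawn, CAR and PXR targets reach furthest to the right with Cyp2b2 at 1.61, AhR targets follow with Cyp1a1 at 1.29, and the metallothioneins are the 2 points at -0.93.

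Other routes of lipid and steroid metabolism showed few separations. None of 26 measured genes of cholesterol synthesis and none of 16 of fatty acid synthesis separated the groups, with medians of -0.05 and 0.04, each of which changed sign when some single arrays were left out. Srebf2, the regulator of cholesterol synthesis, stood at -0.30 (adjusted p = 0.533) and Me1, which supplies NADPH for fatty acid synthesis, at 0.41 (adjusted p = 0.605). Of 20 measured genes of bile acid synthesis and transport, only Abcc2 lay above without overlap (5%, against 1.94% of all transcripts). Only Amacr, a racemase of the side chain of bile acids, lay below (5%, against 3.16% of all transcripts). Its difference was -0.34 ± 0.12 (adjusted p = 0.393 by limma). Akr1d1, the reductase of bile acid synthesis, stood at -0.54 (adjusted p = 0.335) with 3 of 4 arrays below. Cyp17a1, a P450 of steroid synthesis that rat liver makes before puberty, stood at 1.04, 0.89, 1.02 and 0.95 in 0.5M and at 1.56, 1.52, 1.31 and 1.41 in AhR. Its groups did not overlap (-0.47 ± 0.08, adjusted p = 0.104), and the controls ran from 1.21 to 1.80, above all of 0.5M. Akr1b7, a reductase of aldehydes, stood at 0.62 ± 0.12 (adjusted p = 0.136) with 3 of 4 arrays of 0.5M above.

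Targets of NRF2, of which 22 were measured, had a median of 0.12 (0.16 on slide 1, 0.00 on slide 2) with no separation of the groups in any gene. It was 0.02 without array 2 of 0.5M and 0.04 without array 2 of AhR. The glutathione transferase Gsta3 stood at 0.19 (adjusted p = 0.576). Genes that respond to glucocorticoids were lower in 0.5M for 12 of 15, again without separation, with a median of -0.13 (-0.18 and -0.05). Array 1 of AhR was the highest for 6 of the 15, and the median was -0.04 without it, -0.20 without array 2 of AhR and -0.21 without array 4 of AhR. Besides Cdkn1a, Fkbp5, which tunes the glucocorticoid receptor, stood at -0.35 (adjusted p = 0.502). In the respiratory chain 17 of 23 genes were higher, with a median of 0.07 that was 0.01 on slide 1 and 0.13 on slide 2, 0.12 without array 2 of AhR, 0.10 without array 2 of 0.5M and 0.04 without array 4 of AhR or array 3 of 0.5M. Its 2 members without overlap (8.70%, against 1.94% of all transcripts) were Atp5pb, of ATP synthase (0.24, adjusted p = 0.360), and Ndufs1, of complex I (0.17, adjusted p = 0.556).

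Of the genes with no list that ranked highest on the side of 0.5M, Ppid, a chaperone that joins Hsp90 complexes, stood at -0.21, -0.19, 0.09 and 0.33 in 0.5M and at -0.77, -0.56, -0.39 and -0.39 in AhR. Its groups did not overlap (0.53 ± 0.09, adjusted p = 0.0976), and arrays 3 and 4 were the higher ones of both groups. Ddc, which decarboxylates aromatic amino acids (0.43 ± 0.09, adjusted p = 0.192), the sialomucin gene Cd164 (0.32 ± 0.08, adjusted p = 0.234) and the membrane magnesium transporter gene Mmgt1 (0.32 ± 0.07, adjusted p = 0.227) also had all 0.5M arrays above all AhR arrays. Each of these 3 had a difference under 0.5 on the log2 scale on both slides.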

How the data were processed

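Values came from scan files that the authors deposited, written by Agilent Feature Extraction 10.7.3.1 per the file headers, with median signal and background of both dyes as scanner intensity. Their LogRatio is on the log10 scale, and their spot marks, of the unit other, are 0 or 1, per the file headers. The table of values that the authors deposited is on the log2 scale. Each column correlated at 0.976 to 0.998 with loess ratios of its own array without background correction, and at 0.878 or less with those of any other. Direction and centring thus match (column medians -0.0093 to 0.0125), how it was made is not given in the sources used here, and it served as an alternative.

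Signals were corrected with normexp (offset 50) and loess within arrays in limma 3.58.1 (R 4.3.3). Control spots had weight 0, and spots marked non-uniform or as outliers were left out. Spots of a probe were averaged. Of 30367 probes, 13368 were above background in Cy5 (at least 50% of spots) on at least 4 of 8 arrays and had no missing value. A further 10 above background were dropped for missing values, and the brightest probe of a gene was kept. RefSeq accessions gave 18004 probes a symbol, and 12363 had none. The fit had a mean per group and a slide term, and tests were two-sided with Benjamini-Hochberg adjustment. It was also tested on simulated data with independent normal errors. These held no shared litters and no other tissue, so that test cannot speak to those limits. No probe was saturated, and precision is limited by how few arrays there were.

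The 35 gene lists and the members were chosen with earlier results of these data known, and lists got no test. Named genes are those past the threshold, filled to 12 a direction by unadjusted p, a fixed set of P450 and conjugation genes, and the top 3 of each list by p. Members without overlap and Slc30a1, Cyp4a3, H19, Ahr, Nr1i2, Alas1, Ces2c, Ephx1, Bag3, Rrm2 and Tnnc2 were added after their values were seen. Some genes that the rule names are not reported here.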

Additional observations from a re-analysis of the deposited data

Results flagged for a closer look

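Each of 78 genes was checked in both groups for an array far from the other 3 (Dixon's test, 156 groups of 4 arrays). Some of the genes were added after their values were seen, and genes can move together on 1 array, so no chance rate is given. In 8 groups an array stood out. On array 4 of 0.5M, the array with muscle transcripts, these were Tnnc2 at 3.80 against -3.02 to -2.14 on the other 3 and Ahr at -0.0452 against 0.08 to 0.10. On array 1 of 0.5M, Cyp1a1 stood at 2.69 against 1.85 to 1.96 and Abcc3 at 0.42 against 0.65 to 0.69. On array 2 of 0.5M, Cyp4a3 stood at -2.16 against -1.20 to -1.13. Of the AhR arrays, array 4 had Ugt1a6 at 0.90 against 0.64 to 0.68, array 1 had Amacr at -0.14 against -0.75 to -0.70, and array 2 had Slc30a1 at -0.0507 against 0.24 to 0.26. Without array 1 of 0.5M the difference of Cyp1a1 was 1.10 (adjusted p = 0.192 by limma).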

How the results depend on the processing

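The count of 1 transcript past the threshold became 3 with all 16 arrays in the fit (Cyp2b2, Cyp1a1 and Cyp2c6v1), 2 without a slide term, 12 with array weights (Cyp1a1, Cyp2c6v1, Smad7 and Mt2A among them) and 5 without both arrays that held other tissue (Cyp2b2 and Cyp2c6v1 among them). It was 0 on slide 1 alone, on slide 2 alone, with median centring in place of loess and with the ratios of the scanner software, where 414, 978, 79 and 1130 transcripts had an unadjusted p under 0.05. Cyp2b2 kept its difference there (1.81, 1.41, 1.61 and 1.62; adjusted p = 0.164, 0.139, 1 and 0.168 by limma). Leaving out 1 array gave counts from 1 to 6. With the replicate block, replicate number in place of slide, 2 passed (Cyp2b2 and a transcript with no symbol), but same-numbered arrays did not deviate together (r from -0.13 to 0.24), so the numbers do not pair the samples. Cyp2b2 passed under 19 of 23 alternatives. The median of AhR targets was 0.47 on slide 1 alone. On slide 1 alone the difference of Ahr was 0.0108 and of Tnnc2 -0.146, and on slide 2 alone that of Aldh1a1 was -0.0314. Tnnc2 ran from -0.00981 (without array 4 of 0.5M) to 2.72 when 1 array was left out, and was at -0.216 without both arrays. CAR and PXR targets kept the sign of their median under all 23 alternatives, from 0.16 to 0.27. So did AhR targets from 0.15 to 0.47, fatty acid oxidation from -0.20 to -0.07 and apolipoproteins from -0.26 to -0.16. Other lists did so too, among them markers of hepatocytes (-0.205 to -0.0743) and fat (-0.226 to -0.0073). By the balanced design, the fit of all 16 arrays, that without a slide term and the replicate block return the differences of the main fit. These, like Aquantile, could not change a sign. The Kupffer cell list changed sign on slide 1 alone. The causes were not tested. Aquantile leaves ratios as they are. Array 1 of AhR and array 2 of 0.5M had the fewest probes above background, and with 4 arrays a group small differences could not be resolved.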
